A study of Homo sapiens with 21 samples.

Results

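Tumours treated with valemetostat were compared with tumours treated with PF-06821497. The members were chosen by the treatment in their labels, 3 libraries for each compound, 6 of the 21 libraries of the series, with 3 vehicle libraries as background. All tumours were xenografts of the human bladder carcinoma line HT1376, grown subcutaneously in female CB17 SCID mice 6 to 8 weeks old. CB17 SCID mice lack mature T and B lymphocytes and keep macrophages, granulocytes and natural killer cells. Valemetostat and PF-06821497 were each dosed orally once a day at 75 mg/kg, and control animals received vehicle. Dosing began 11 to 15 days after the cells were implanted, at mean tumour volumes of 139 to 160 mm3, and every tumour was taken 1 hour after the dose on day 15. A single dose, a single time and a single tumour line were therefore compared, and drug exposure was not measured in these data. Whether the 3 libraries of a group stand for 3 animals is not in the labels, so p-values describe how far these libraries vary and may reflect technical spread.

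Both compounds act on PRC2, the polycomb complex that trimethylates lysine 27 of histone H3 and holds genes silent. The methyl group is transferred by EZH2 or its homologue EZH1, within a core that also holds EED and SUZ12. PRC1, a second polycomb complex, reads the mark through its CBX subunits. Valemetostat is known to inhibit both EZH1 and EZH2, and PF-06821497 is known as an EZH2 inhibitor. Genes commonly held by PRC2 include developmental transcription factors and, in many carcinomas, genes of antigen presentation and interferon-responsive chemokines.

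In the direct comparison, 760 genes were higher and 255 lower with valemetostat than with PF-06821497, of 21958 genes tested. This is a background of 4.62% of tested genes called, 3.46% higher and 1.16% lower, at a Benjamini-Hochberg adjusted p under 0.05 in edgeR's quasi-likelihood test, the source of every adjusted p below. List counts between the compounds, given below, stand beside these shares. The called rises had a median log2 fold change of 1.40 and the called falls one of -0.79, while the median over all tested genes was -0.02. The 3 valemetostat and 3 PF-06821497 libraries did not overlap at 18.2% of tested genes, valemetostat being above at 10.6% and below at 7.56%. Protein-coding genes were called higher in 639 of 15497 cases (4.12%) and lower in 211 (1.36%), and long intergenic RNAs were called higher in 37 of 1440 cases (2.57%). Against vehicle, 5987 genes (27.3%) were called with valemetostat and 2098 (9.55%) with PF-06821497, 3303 (15%) against 1309 (5.96%) of them higher and 2684 (12.2%) against 789 (3.59%) lower. These 2 comparisons share the 3 vehicle libraries.

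Libraries of each compound were not alike. On the first principal component of the 9 libraries (53.3% of the variance), valemetostat libraries stood at 59.1, 45.8 and 79.9, PF-06821497 libraries at 13.4, -10.5 and 0.79, and vehicle libraries between -66.6 and -59.8. Valemetostat library 3 was thus the farthest from vehicle on that component. On the second component (12.8% of the variance), PF-06821497 libraries stood at -34.1, 56.9 and -18.8, and all other libraries between -23.4 and 16.03. Without valemetostat library 3, 212 genes were higher and 24 lower, and without PF-06821497 library 3 the counts were 347 and 72. The count of falls was 98 without valemetostat library 1, and leaving out any other of the 6 libraries kept both counts within 1.5 times of the full ones. Of the 236 genes called without valemetostat library 3, 235 were among the 1015 calls with the same direction. The 6 libraries held 17160480 to 24097875 counts, so that 3 counts correspond to 0.124 to 0.175 CPM (counts scaled to the size of the library, here by TMM, the normalization of edgeR). In a fit of these 6 libraries alone, 329 genes were higher and 47 lower, and 37 of the 97 called genes chosen by the naming rule lost their call, among them CXCL10 (adjusted p = 0.0795), CXCL11 (0.0715), CCL3 (0.0692), IDO1 (0.0588), LIF (0.0587), NTN1 (0.0505), COL6A1 (0.0716), IRAK3 (0.0612), OR2I1P (0.0667) and KRT1 (0.0853). Levels below are CPM, in the order of libraries 1, 2 and 3, and differences are log2 fold changes of valemetostat over PF-06821497 unless another comparison is named.

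**Figure D1:**
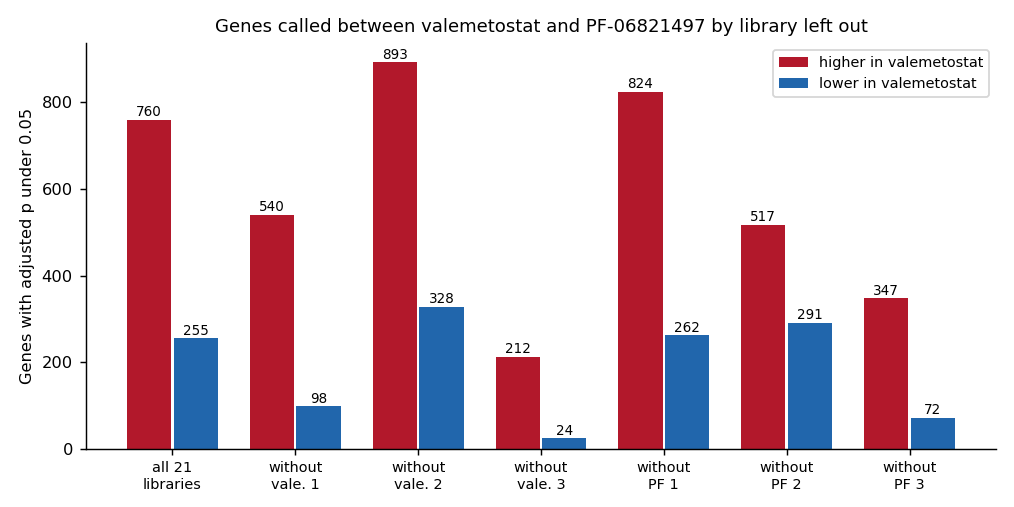
Bars give the number of genes with adjusted p under 0.05 between valemetostat and PF-06821497 (vertical axis), higher (red) or lower (blue) in valemetostat, with all 21 libraries in the fit and with each of the 6 compared libraries left out. The counts were lowest without valemetostat library 3, at 212 and 24, against 760 and 255 with all libraries.

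None of the 4 core subunits of the target complex passed the test between the compounds. EZH2 stood at 84.5, 86.9 and 98.1 CPM in valemetostat tumours, 91.3, 79.6 and 88 CPM in PF-06821497 tumours and 72.8, 71.4 and 73.6 CPM in vehicle tumours, with a difference between the compounds of 0.06 (95% interval -0.15 to 0.27, adjusted p = 0.827). The 2 compound groups overlapped for EZH2. EZH1 differed by -0.07 (95% interval -0.30 to 0.15), SUZ12, the scaffold subunit, by -0.06 (95% interval -0.45 to 0.33), and EED, which binds the methyl mark, by 0.30 (95% interval 0.03 to 0.57); none of the 3 passed the test. Of 15 tested PRC2 genes 1 was called, EZHIP, whose product inhibits PRC2. EZHIP had 12.9, 8.24 and 12.2 CPM with valemetostat, 7.63, 3.91 and 6.06 CPM with PF-06821497 and 0.996, 1.72 and 1.3 CPM with vehicle, a difference of 0.93 ± 0.26 (SE), adjusted p = 0.0416. The compound groups did not overlap for EZHIP, but the call was lost without valemetostat library 1 (adjusted p = 0.165), valemetostat library 3 (0.172), PF-06821497 library 2 (0.16) or PF-06821497 library 3 (0.122). It was also lost with the replicate number as a block (0.0505 by titles, 0.0638 by file names), with a term for the resubmission mark (0.0715 and 0.0639) and in the fit of the 6 libraries alone (0.0922). EPOP, a PRC2 cofactor linking it to elongin, rose with valemetostat over vehicle, by 0.86 (adjusted p = 0.000233), and missed the threshold between the compounds (0.50 ± 0.15, adjusted p = 0.0643), passing it without valemetostat library 2 (0.0413) or PF-06821497 library 1 (0.0168). EPOP was also called by DESeq2 (0.0335), with upper-quartile scaling (0.0342), the filter of 1 CPM in 3 libraries (0.0414), no low-count filter (0.0296) and the resubmission term by titles (0.0078). It was not called in the other settings, among them RLE scaling, limma-voom and the fit of the 6 libraries alone.

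Of 25 tested PRC1 genes, 4 were higher with valemetostat and none lower (all genes: 3.46% and 1.16%): CBX2, CBX6, BCORL1 and SCML2. CBX2, which reads the histone mark, had 17.4, 16.6 and 25.7 CPM with valemetostat, 12.5, 8.21 and 10.2 CPM with PF-06821497 and 6.02, 6.8 and 7.08 CPM with vehicle, a difference of 0.95 ± 0.20 (SE), adjusted p = 0.00934. CBX6, another reader, had 107, 99.9 and 112 CPM with valemetostat, 75.8, 80.6 and 62 CPM with PF-06821497 and 71, 83 and 80.5 CPM with vehicle (0.55 ± 0.11 (SE), adjusted p = 0.00649). The medians of the 2 lists, -0.07 for PRC2 and 0.03 for PRC1, lay close to that of all genes. CBX2 lost its call without valemetostat library 3 (0.0931) and CBX6 without PF-06821497 library 3 (0.061). The PRC1 count was 1 without valemetostat library 3 or PF-06821497 library 3 and 2 without PF-06821497 library 2.

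MHC class II genes gave the highest median of the lists examined. Class II molecules present peptides from outside the cell to CD4+ T cells, and their transcription depends on the coactivator CIITA. Of 17 tested members, 15 were higher with valemetostat and none lower, with a median log2 fold change of 2.41 (all genes: -0.02). CIITA had 29.3, 26.9 and 59.1 CPM in valemetostat tumours, 14.5, 9.93 and 7.42 CPM in PF-06821497 tumours and 4.8, 5.88 and 4.89 CPM in vehicle tumours. Every valemetostat library was above every PF-06821497 library, and valemetostat library 3 was the highest. The difference was 1.86 ± 0.28 (SE), adjusted p = 0.000959.

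The chains of the class II molecules followed a similar order of groups. HLA-DPB1 had 19.2, 13.1 and 34.1 CPM with valemetostat, 4.88, 3.31 and 4.3 CPM with PF-06821497 and 0.679, 1.26 and 0.559 CPM with vehicle (2.41 ± 0.32 (SE), adjusted p = 0.00057). HLA-DPA1 had 29.9, 22.8 and 58.5 CPM, 8.26, 5.89 and 7.42 CPM and 1.27, 2.1 and 1.12 CPM in valemetostat, PF-06821497 and vehicle tumours, a difference of 2.37 ± 0.35 (SE), adjusted p = 0.000959. HLA-DQA1 gave the largest log2 fold change among the class II genes, 3.14 ± 0.45 (SE), adjusted p = 0.000975, with 28.1, 18.8 and 63.2 CPM in valemetostat tumours, 5.5, 2.88 and 4.13 CPM in PF-06821497 tumours and 0.362, 0.755 and 0.559 CPM in vehicle tumours. In each of these genes the compound groups did not overlap, and the PF-06821497 libraries lay between the valemetostat and vehicle libraries. CD74, the invariant chain that escorts class II molecules, reached 342, 264 and 615 CPM with valemetostat, against 107, 65.3 and 78.6 CPM with PF-06821497 and 18, 32.1 and 15.4 CPM with vehicle. HLA-DMB, a chain of the peptide editor HLA-DM, differed by 2.48 ± 0.39 (SE), adjusted p = 0.00117, and CTSS, a protease that trims the invariant chain, by 1.02 ± 0.22 (SE), adjusted p = 0.00967. The 2 members that did not pass were HLA-DOB (0.30, 95% interval -0.47 to 1.06) and IFI30, a lysosomal thiol reductase (0.20, 95% interval -0.33 to 0.73). Against vehicle, 15 of the 17 members rose with valemetostat (list median 4.62) and 12 with PF-06821497 (list median 2.16), comparisons that share the vehicle libraries. The count between the compounds stayed between 13 and 15 when any of the 6 libraries was left out. CTSS was not called without valemetostat library 3 (adjusted p = 0.109) or in the fit of the 6 libraries alone (0.0504). HLA-DRB1 and HLA-DRB5, and HLA-DQA1 and HLA-DQA2, are near copies whose reads the authors' counting could divide.

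The class II genes share a promoter architecture in which an X box and a Y box lie close to the start, and the core of the Y box, GATTGG or CCAATC on the other strand, is known to be bound by NF-Y. RefSeq (GRCh38.p14) promoter windows were on hand for 14 of the 17 tested class II genes (82.4%). GATTGG on either strand lay in the 250 bases before the start in 10 of the 14 (71.4%), against 14.6% of 27305 windows of the same length. A match is a description of letters and shows no binding. Since class II genes are known to share the Y box, the higher share says nothing about the difference between the compounds. The windows of 4 genes that rose are printed 5′ to 3′ on the gene's strand, with the GATTGG or CCAATC letters in capitals, since they show the motif at differing distances from the start. They cover HLA-DPB1 at chr6:33075740-33075989 on the plus strand, HLA-DRB1 at chr6:32589849-32590098, HLA-DMB at chr6:32941029-32941278 and HLA-DQB1 at chr6:32666658-32666907, the last 3 on the minus strand.
HLA-DPB1: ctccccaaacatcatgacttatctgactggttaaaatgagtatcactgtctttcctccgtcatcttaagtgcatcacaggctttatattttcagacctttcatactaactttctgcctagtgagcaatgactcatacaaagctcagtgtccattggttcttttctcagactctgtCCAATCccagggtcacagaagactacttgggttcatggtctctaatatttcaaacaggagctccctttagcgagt
HLA-DRB1: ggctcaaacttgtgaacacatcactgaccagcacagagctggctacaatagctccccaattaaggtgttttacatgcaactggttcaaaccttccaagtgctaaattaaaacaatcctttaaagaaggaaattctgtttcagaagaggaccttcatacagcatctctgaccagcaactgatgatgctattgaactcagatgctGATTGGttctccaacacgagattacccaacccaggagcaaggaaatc
HLA-DMB: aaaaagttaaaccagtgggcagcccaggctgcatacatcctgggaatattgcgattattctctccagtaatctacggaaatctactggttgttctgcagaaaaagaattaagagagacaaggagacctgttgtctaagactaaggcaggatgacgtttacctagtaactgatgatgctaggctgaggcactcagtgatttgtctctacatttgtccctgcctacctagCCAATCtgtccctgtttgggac
HLA-DQB1: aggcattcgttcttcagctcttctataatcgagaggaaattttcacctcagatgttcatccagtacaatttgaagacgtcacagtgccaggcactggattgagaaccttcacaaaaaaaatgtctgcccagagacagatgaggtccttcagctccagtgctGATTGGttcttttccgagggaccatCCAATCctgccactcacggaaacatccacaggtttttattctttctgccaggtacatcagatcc
The motif began 75 bases before the start in HLA-DPB1, 47 in HLA-DRB1 and 22 in HLA-DMB, and the HLA-DQB1 window held 2 matches, at 89 and 64 bases. HLA-DRB1 had 75.6, 49.2 and 138 CPM with valemetostat and 17.6, 10.5 and 16.2 CPM with PF-06821497 (2.57 ± 0.38 (SE), adjusted p = 0.00123), and HLA-DQB1 had 58.2, 42.2 and 109.5 CPM and 16.5, 8.81 and 13.7 CPM (2.43 ± 0.37 (SE), adjusted p = 0.0013). The windows of CD74, HLA-DPA1, HLA-DQA1 and IFI30 held no such letters, and the first 3 of these genes also rose. The window of HLA-DOB held the letters, and HLA-DOB did not pass the test between the compounds.

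**Figure D2:**
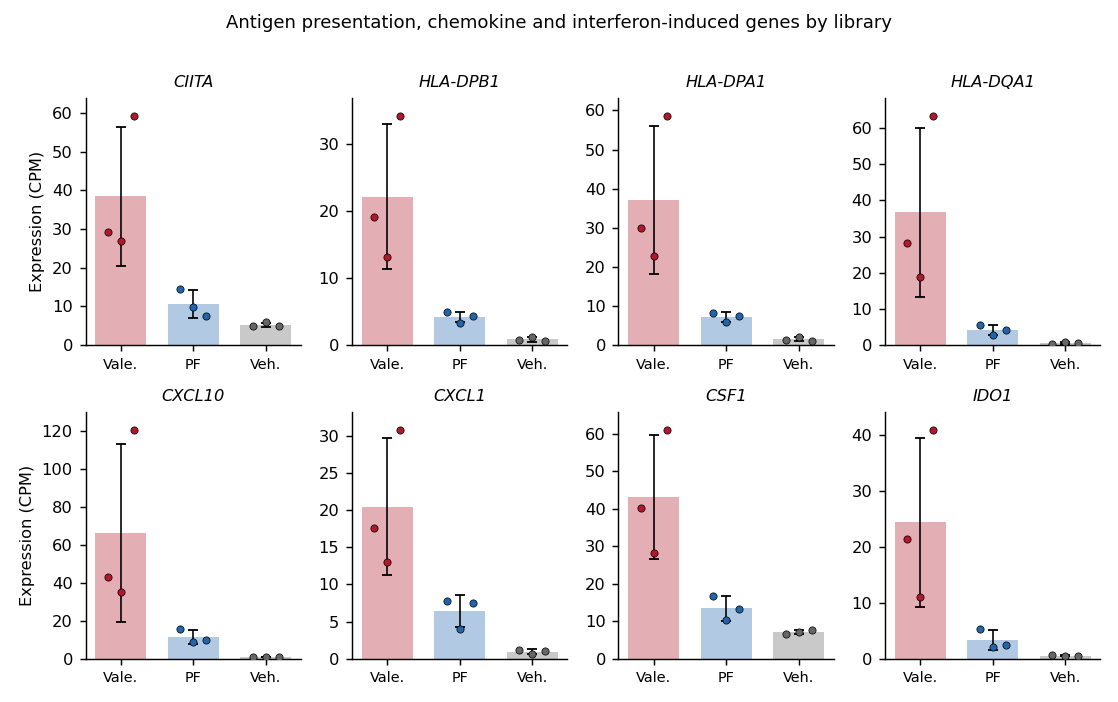
Each panel gives the CPM of 1 gene in valemetostat (Vale.), PF-06821497 (PF) and vehicle (Veh.) tumours, with points for libraries 1 to 3 from left to right, bars for means and whiskers for SD (n = 3). In all 8 genes every valemetostat library lies above every PF-06821497 library, as for CIITA, where 26.9 is the lowest valemetostat and 14.5 the highest PF-06821497 value. These genes were named as the members of their lists ranked lowest by p between the compounds, a choice that favours such separation. Over all tested genes, valemetostat lay above without overlap at 10.6%.

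MHC class I molecules present peptides from inside the cell to CD8+ T cells. Of 22 tested class I presentation genes, 10 were higher with valemetostat than with PF-06821497 and none lower, with a median of 0.42. TAP1, which carries peptides into the endoplasmic reticulum, had 207, 161 and 240.0 CPM with valemetostat, 125, 89 and 101 CPM with PF-06821497 and 89.3, 94.2 and 85.9 CPM with vehicle. PF-06821497 libraries thus overlapped vehicle libraries, and valemetostat libraries stood above both. The difference between the compounds was 0.95 ± 0.15 (SE), adjusted p = 0.000959. PSMB9, a catalytic subunit of the immunoproteasome, differed by 0.89 ± 0.14 (SE), adjusted p = 0.00126, and NLRC5, the transactivator of class I genes, by 1.06 ± 0.19 (SE), adjusted p = 0.0026. The heavy chain gene HLA-B reached 3168, 2554 and 3601 CPM with valemetostat, against 1667, 1725 and 1792 CPM with PF-06821497 and 1187, 1533 and 991 CPM with vehicle (0.85 ± 0.20 (SE), adjusted p = 0.0156). B2M, the light chain, missed the threshold (0.40, 95% interval 0.06 to 0.75). The count of 10 dropped to 4 without valemetostat library 1, 3 without valemetostat library 3 and 6 without PF-06821497 library 3. HLA-B lost its call without valemetostat library 1 (0.0504), valemetostat library 3 (0.113) or PF-06821497 library 3 (0.0581), while TAP1, PSMB9 and NLRC5 kept their calls when any of the 6 libraries was left out.

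Interferon-stimulated genes, which are induced through STAT and IRF factors, were higher with valemetostat in 22 of 54 tested members and lower in none, with a median of 0.61. The difference was positive in 52 of the 54, while the median over all tested genes was -0.02. All members were measured in the same libraries, so their signs are not independent results. Against vehicle, 29 of the 54 rose with valemetostat (list median 0.57) and 4 with PF-06821497 (list median -0.03), against the same 3 vehicle libraries. IDO1, which degrades tryptophan, had 21.3, 11.1 and 40.8 CPM in valemetostat tumours, 5.35, 2.19 and 2.46 CPM in PF-06821497 tumours and 0.634, 0.588 and 0.466 CPM in vehicle tumours (2.88 ± 0.39 (SE), adjusted p = 0.00057). IRF1, a transcription factor induced by interferon gamma, had 109, 99.3 and 126 CPM with valemetostat, 62.9, 55 and 63.9 CPM with PF-06821497 and 53, 55.6 and 44.9 CPM with vehicle. For IRF1 the valemetostat libraries lay above all others, and the PF-06821497 libraries lay near the vehicle libraries. Its difference between the compounds was 0.88 ± 0.13 (SE), adjusted p = 0.000797, while PF-06821497 differed from vehicle by 0.24 (adjusted p = 0.262). APOL1, a secreted host-defence protein, differed by 0.75 ± 0.12 (SE), adjusted p = 0.00123, with 152, 124 and 142 CPM in valemetostat, 84.8, 88.9 and 75.3 CPM in PF-06821497 and 87.3, 90.2 and 77.1 CPM in vehicle tumours. WARS1, a tryptophan tRNA synthetase induced by interferon, differed by 0.77 ± 0.13 (SE), adjusted p = 0.00186.

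The antiviral effector MX1 showed a less stable difference. MX1, which blocks viral replication, had 496, 343 and 489 CPM with valemetostat, 358, 184 and 214 CPM with PF-06821497 and 244, 287 and 281 CPM with vehicle (0.81 ± 0.23 (SE), adjusted p = 0.0457). PF-06821497 library 1 was above a valemetostat library for MX1. MX1 was not called without valemetostat library 1 or 3 or PF-06821497 library 2 or 3 (adjusted p from 0.165 to 0.2), nor with the block by file names (0.0737), a resubmission term (0.0791 by titles, 0.0625 by file names) or the skeletal muscle marker level as a covariate (0.0506). Its call was also lost in the fit of the 6 libraries alone (0.121). The count of 22 interferon-stimulated genes was 15 without valemetostat library 1, 5 without valemetostat library 3, 33 without PF-06821497 library 1, and 8 without PF-06821497 library 2 or 3. IDO1, IRF1, APOL1 and WARS1 kept their calls without any 1 of the 6 libraries.

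The IRF1 promoter is printed because it holds TTCNNNGAA, the letters of the gamma-activated site, an element known from genes that respond to interferon gamma, in the RefSeq window of the 250 bases before its start (GRCh38.p14, chr5:132490774-132491023, minus strand). The motif reads the same on both strands and lay in 6.8% of the 27305 windows. The matching letters are in capitals and begin 124 bases before the start.
IRF1: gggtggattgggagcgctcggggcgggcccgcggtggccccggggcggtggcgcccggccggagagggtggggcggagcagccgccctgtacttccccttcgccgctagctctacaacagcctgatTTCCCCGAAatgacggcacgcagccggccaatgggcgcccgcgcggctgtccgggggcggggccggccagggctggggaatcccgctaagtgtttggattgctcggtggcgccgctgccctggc

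**Figure D3:**
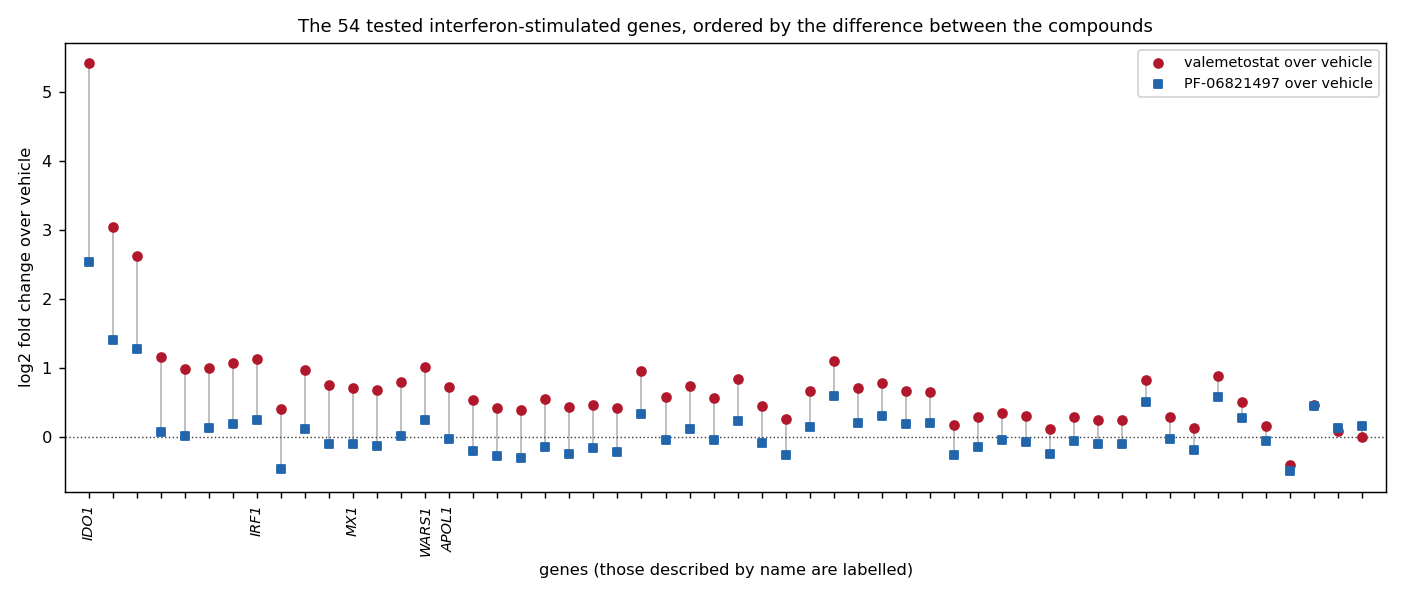
Points give the log2 fold change over vehicle (vertical axis) of the 54 tested interferon-stimulated genes with valemetostat (red circles) and PF-06821497 (blue squares), joined by a line for each gene and ordered by the difference between the compounds; the 5 genes described by name are labelled. Red lies above blue in 52 genes, and the list medians are 0.57 for valemetostat and -0.03 for PF-06821497; both series share the vehicle libraries.

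Chemokine genes were higher with valemetostat in 12 of 26 tested members (31 listed) and lower in none, with a median of 1.16. CXCL10, which attracts T cells through CXCR3, had 43.3, 35.4 and 120.2 CPM with valemetostat, 15.9, 8.85 and 9.84 CPM with PF-06821497 and 0.77, 0.923 and 0.745 CPM with vehicle (2.53 ± 0.36 (SE), adjusted p = 0.000959). CXCL11, a ligand of the same receptor, differed by 1.63 ± 0.28 (SE), adjusted p = 0.00218. CXCL9, the third ligand of CXCR3, had 1.77, 1.23 and 4.58 CPM with valemetostat and 0.675, 0.129 and 0.263 CPM with PF-06821497, and no count in any vehicle library (2.85 ± 0.53 (SE), adjusted p = 0.00423). The neutrophil attractant CXCL1 had 17.6, 13.1 and 30.7 CPM in valemetostat tumours, 7.79, 3.95 and 7.55 CPM in PF-06821497 tumours and 1.22, 0.588 and 1.02 CPM in vehicle tumours (1.67 ± 0.28 (SE), adjusted p = 0.00182). All these groups followed the order valemetostat, PF-06821497, vehicle, with no overlap between the compounds. CCL3 and CCL4, neighbours on chromosome 17 that encode inflammatory chemokines, were among the largest rises: CCL3 had 9.29, 4.05 and 14.1 CPM with valemetostat and 1.35, 0.129 and 1.23 CPM with PF-06821497 (3.36 ± 0.58 (SE), adjusted p = 0.00241), and CCL4 had 4.9, 2.62 and 5.29 CPM and 0.883, 0.043 and 0.483 CPM (3.22 ± 0.54 (SE), adjusted p = 0.00157). Both have close copies in the genome, so their counts are uncertain. The list count was 7 without valemetostat library 3 and 8 without PF-06821497 library 3, while CXCL1, CXCL10, CXCL11, CCL3 and CCL4 kept their calls in each such fit.

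Cytokine genes were higher with valemetostat in 8 of 33 tested members (35 listed) and lower in none, with a median of 0.65. CSF1, the growth factor of macrophages, had 40.1, 28.2 and 60.9 CPM with valemetostat, 16.8, 10.2 and 13.3 CPM with PF-06821497 and 6.56, 7.05 and 7.55 CPM with vehicle (1.68 ± 0.22 (SE), adjusted p = 0.00057). IL32 had 351, 264 and 343 CPM with valemetostat, 106, 126 and 142 CPM with PF-06821497 and 55.3, 52 and 33.8 CPM with vehicle (1.36 ± 0.23 (SE), adjusted p = 0.00167), and LIF, an IL6-family cytokine, differed by 1.32 ± 0.25 (SE), adjusted p = 0.00456. The groups did not overlap for CSF1, IL32 or LIF. IL6 had 2.29, 1.04 and 4.08 CPM with valemetostat, 0.675, 0.473 and 0.834 CPM with PF-06821497 and 0.0453, 0.0839 and 0.14 CPM with vehicle (1.89 ± 0.40 (SE), adjusted p = 0.00859), a call lost without valemetostat library 3 (adjusted p = 0.102). The cytokine count was 3 without valemetostat library 3 and 5 without PF-06821497 library 3. Among 20 genes of the NF-kB pathway 4 were higher and none lower, with a median of 0.33: SOD2, a mitochondrial superoxide dismutase (1.05 ± 0.21 (SE), adjusted p = 0.00593), ICAM1, an adhesion molecule (1.10 ± 0.23 (SE), adjusted p = 0.00876), NFKBIE, an inhibitor of the pathway (0.64 ± 0.15 (SE), adjusted p = 0.0156), and NFKB2, a subunit precursor (0.50 ± 0.12 (SE), adjusted p = 0.0223). None of the 4 was called without valemetostat library 3, and 2 were called without valemetostat library 1 or PF-06821497 library 2.

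Developmental transcription factors were higher with valemetostat in 17 of 108 tested members and lower in 1, SOX7, with a median of 0.72. A further 68 of the 176 listed genes had too few counts to be tested, and a member passes that filter when it is high in any of the 7 groups. TAL1, a regulator of blood formation, had 3.59, 1.33 and 5.57 CPM with valemetostat, 0.623, 0.129 and 0.176 CPM with PF-06821497 and 0.136, 0.126 and 0.0932 CPM with vehicle (3.53 ± 0.54 (SE), adjusted p = 0.000959). SP8, a limb outgrowth factor, had 1.03, 1.28 and 3.58 CPM with valemetostat and 0.208, 0.0859 and 0.176 CPM with PF-06821497 (3.61 ± 0.59 (SE), adjusted p = 0.00132). TBX5, a heart and forelimb factor, had 1.45, 1.09 and 1.88 CPM, 0.208, 0.0859 and 0.176 CPM and 0.0905, 0.126 and 0.0932 CPM in valemetostat, PF-06821497 and vehicle tumours (3.20 ± 0.45 (SE), adjusted p = 0.00057). EOMES, a T-box factor of early mesoderm, differed by 2.75 ± 0.47 (SE), adjusted p = 0.00191. For TBX5 the PF-06821497 and vehicle libraries overlapped, with a difference between them of 0.54 (adjusted p = 0.689), whereas the valemetostat libraries were above 1 CPM. The list count was 6 without valemetostat library 3 and 12 without valemetostat library 1, PF-06821497 library 2 or PF-06821497 library 3 in turn; TAL1, SP8, TBX5 and EOMES were called in each of these fits. SOX7 (-0.49 ± 0.13 (SE), adjusted p = 0.0246) was not called in any of these 4 (0.0703 to 0.199), nor in the fit of the 6 libraries alone (0.121).

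Other genes among the 12 largest rises were also at low levels. WT1-AS, antisense to the kidney and gonad factor WT1 on chromosome 11 (32435518 to 32458769, hg38), had 1.03, 0.691 and 1.49 CPM with valemetostat, 0.104, 0.043 and 0.0878 CPM with PF-06821497 and 0.0453, 0.042 and 0.0466 CPM with vehicle (3.69 ± 0.63 (SE), adjusted p = 0.00191). WT1 itself had 0.84, 0.938 and 2.32 CPM with valemetostat and 0.312, 0.172 and 0.0878 CPM with PF-06821497 (2.83 ± 0.56 (SE), adjusted p = 0.00527); per the labels, libraries came from a TruSeq RNA v2 kit by a strand-specific protocol, and whether the counting used strand is not given in the sources used here, so reads of the pair cannot be told apart from these counts. IGF2BP1, an oncofetal RNA-binding protein, had 3.17, 4.05 and 12.2 CPM with valemetostat, 0.883, 0.344 and 0.571 CPM with PF-06821497 and 0.362, 0.042 and 0.14 CPM with vehicle (3.44 ± 0.57 (SE), adjusted p = 0.00184). IRAK3, an inhibitor of Toll-like receptor signalling, differed by 3.33 ± 0.59 (SE), adjusted p = 0.0023, and PHOSPHO1, a phosphatase of bone mineralization, by 3.36 ± 0.54 (SE), adjusted p = 0.00126. HNF4A, a liver and gut transcription factor, had 1.17, 0.839 and 1.43 CPM with valemetostat, 0.104, 0.129 and 0.0878 CPM with PF-06821497 and 0.272, 0.252 and 0 CPM with vehicle (3.34 ± 0.64 (SE), adjusted p = 0.00426). Here PF-06821497 libraries did not exceed the highest vehicle library. KIF19, a ciliary kinesin (3.47 ± 0.51 (SE), adjusted p = 0.000824), CT47C1, a cancer-testis gene with near-identical copies on the X chromosome (3.48 ± 0.65 (SE), adjusted p = 0.0043), and OR2I1P, an olfactory receptor pseudogene within the MHC region of chromosome 6 (3.50 ± 0.58 (SE), adjusted p = 0.00157), completed the set. The 12 largest rises (these 8, with TAL1, SP8, CCL3 and CCL4) kept their calls without any 1 of the 6 libraries, while WT1, not among them, lost its call without valemetostat library 3 (0.0582).

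HOX genes, the positional regulators of the body axis, gave 1 call among 26 tested of 39 listed. HOXD11 had 0.513, 0.444 and 1.16 CPM with valemetostat and 0.26, 0 and 0.0439 CPM with PF-06821497 (2.82 ± 0.77 (SE), adjusted p = 0.0361). The difference was positive in 25 of the 26, with a list median of 0.97 (all genes: -0.02). The other 13 listed genes had too few counts to be tested, and a member passes that filter when it is high in any of the 7 groups. Members at low levels may have passed only through valemetostat libraries, so this count and median are no test of the list. No member besides HOXD11 passed in edgeR's test: HOXA3 differed by 1.68 (95% interval 0.57 to 2.79) and HOXB7 by 1.57 (95% interval 0.48 to 2.65). DESeq2 called both, HOXA3 (adjusted p = 0.0489) and HOXB7 (0.043). With no low-count filter 9 HOX genes were called, in a fit whose adjusted p-values were of another order than in the other settings. HOXD11 was not called without valemetostat library 1 (adjusted p = 0.0515), valemetostat library 3 (0.224), PF-06821497 library 2 (0.121) or PF-06821497 library 3 (0.16), nor with the block by titles (0.0567) or a term for the resubmission mark (0.0582 by titles, 0.0635 by file names). Without PF-06821497 library 1 the list count was 4, with HOXB7 passing (0.049).

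Signalling genes of development were higher in 6 and lower in 2 of 60 tested (72 listed), with a median of 0.34. NTN1, an axon guidance ligand, had 7.66, 4.29 and 16.5 CPM with valemetostat, 2.18, 1.03 and 0.703 CPM with PF-06821497 and 0.317, 0.252 and 0.186 CPM with vehicle (2.88 ± 0.46 (SE), adjusted p = 0.00128). INHBA, the activin A subunit, had 125, 123 and 131 CPM with valemetostat, 85.9, 57.7 and 47.2 CPM with PF-06821497 and 29.5, 25.7 and 29 CPM with vehicle (0.99 ± 0.18 (SE), adjusted p = 0.00232). WNT11, a noncanonical WNT ligand, was lower, at 5.55, 7.95 and 7.67 CPM with valemetostat, 12.7, 12.5 and 17.5 CPM with PF-06821497 and 14.1, 12.2 and 10.1 CPM with vehicle (-1.01 ± 0.21 (SE), adjusted p = 0.00667), a call lost without PF-06821497 library 3 (0.053). The count of rises was 2 without valemetostat library 3.

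Neuronal genes were higher in 6 of 39 tested (54 listed) and lower in none, with a median of 0.38. CHGA, chromogranin A of secretory granules, had 30.8, 22.9 and 39.6 CPM with valemetostat, 14.4, 9.5 and 12 CPM with PF-06821497 and 10.4, 7.76 and 5.59 CPM with vehicle (1.38 ± 0.27 (SE), adjusted p = 0.00456). UCHL1, a neuronal deubiquitinase, differed by 1.11 ± 0.24 (SE), adjusted p = 0.00876, and lost the call without valemetostat library 1 (0.0504), valemetostat library 3 (0.0582) or PF-06821497 library 3 (0.0561). The neuronal count was 4 without valemetostat library 1 or PF-06821497 library 2, 1 without valemetostat library 3 and 2 without PF-06821497 library 3. Cancer-testis genes were higher in 8 of 47 tested (52 listed) and lower in none, with a median of 0.26. PRAME, a melanoma antigen, had 15, 11 and 21.1 CPM with valemetostat, 6.08, 4.43 and 7.33 CPM with PF-06821497 and 0.679, 0.629 and 0.466 CPM with vehicle (1.40 ± 0.26 (SE), adjusted p = 0.00274), and PAGE1 had 31.2, 22.2 and 28.1 CPM, 12.7, 13.3 and 16.9 CPM and 3.08, 2.85 and 2.47 CPM in the same order (0.93 ± 0.19 (SE), adjusted p = 0.00597). For both, the step of either compound over vehicle was larger than the step between the compounds: PRAME differed from vehicle by 4.71 (adjusted p = 5.48e-09) with valemetostat and 3.31 (adjusted p = 4.57e-06) with PF-06821497. The cancer-testis count was 2 without valemetostat library 3, 4 without PF-06821497 library 2 and 3 without PF-06821497 library 3.

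Of 8 CDK inhibitor genes 1 was called in edgeR's test, CDKN1C, the imprinted gene of p57. CDKN1C had 22.9, 22.7 and 13.8 CPM in valemetostat tumours, 8.83, 6.19 and 9.04 CPM in PF-06821497 tumours and 6.56, 7.22 and 6.15 CPM in vehicle tumours. The PF-06821497 libraries overlapped the vehicle libraries, with a difference of 0.27 (adjusted p = 0.436), and the valemetostat libraries lay above both. The difference between the compounds, 1.31 ± 0.19 (SE), adjusted p = 0.000698, passed the test without any 1 of the 6 libraries. CDKN2B, which encodes p15, had 56.3, 62.3 and 64.7 CPM with valemetostat, 80.2, 75.9 and 81.5 CPM with PF-06821497 and 97, 93.6 and 112 CPM with vehicle, without overlap of the compounds, and missed the threshold at -0.37 ± 0.11 (SE), adjusted p = 0.052. It was called by DESeq2 (-0.36, adjusted p = 0.0194) and with the skeletal muscle marker level as a covariate (0.0287). CDKN1A, or p21, differed by 0.18 (95% interval -0.15 to 0.50) and CDKN2A, which encodes p16, by -0.09 (95% interval -0.53 to 0.35). Among 18 tested imprinted genes (22 listed, CDKN1C included) 3 were higher and none lower in edgeR's test, with a median of -0.09. MEG3, a maternally expressed long noncoding RNA, had 3.31, 3.21 and 5.84 CPM with valemetostat, 1.19, 1.07 and 0.79 CPM with PF-06821497 and 0.0905, 0.0839 and 0.0932 CPM with vehicle (2.01 ± 0.35 (SE), adjusted p = 0.00204). PEG10, a paternally expressed gene derived from a retrotransposon, stood at -0.82 ± 0.24 (SE), adjusted p = 0.0583, with overlapping compound groups. It was called lower by DESeq2 (adjusted p = 0.0237), and without valemetostat library 2 (0.00697), PF-06821497 library 1 (0.0477) or PF-06821497 library 3 (0.0337). PEG10 was also called lower with no low-count filter (3.15e-06), a fit whose adjusted p-values were of another order than in the other settings. Of 55 proliferation genes 1 was lower, CCNB2, a mitotic cyclin (-0.41 ± 0.12 (SE), adjusted p = 0.0475), and none higher; the call was lost without any of valemetostat libraries 1 and 3 and PF-06821497 libraries 2 and 3 (0.0806 to 0.317), and also with either other low-count setting (0.118 with no filter, 0.0633 at 1 CPM in 3 libraries), RLE (0.062) or upper-quartile scaling (0.0973), the block by titles (0.0608) and the 6 libraries alone (0.242). A single fall among 55 is near the share of 1.16% called lower over all tested genes. In 54 of the 55 the 95% interval of the difference lay within a 2-fold change either way. MKI67, the proliferation marker, differed by -0.08 (95% interval -0.38 to 0.21). HMGB2 missed the threshold in edgeR (adjusted p = 0.0546) and was called lower by DESeq2 (0.0236) and limma-voom (0.0476). At an unadjusted p under 0.05, edgeR gave 7 falls and no rise in the proliferation list.

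**Figure D4:**
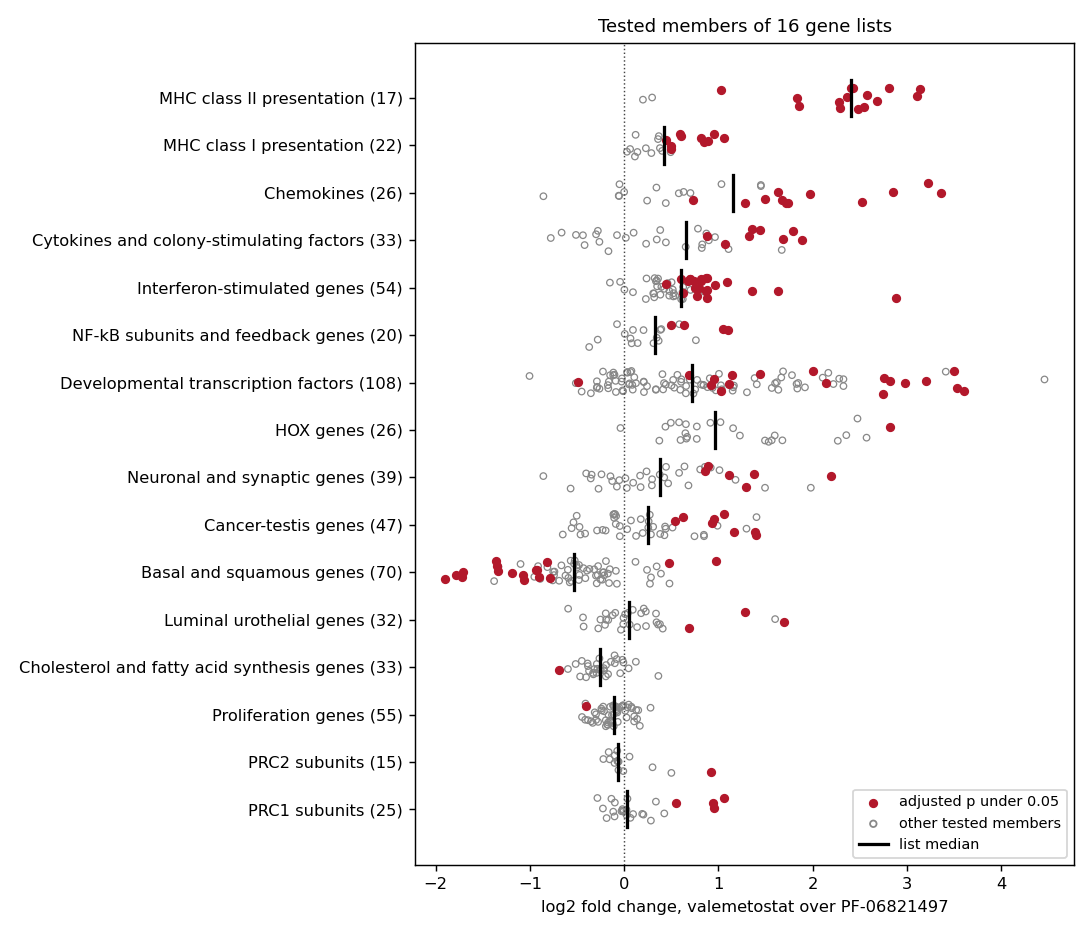
Each point is a tested gene placed at its log2 fold change of valemetostat over PF-06821497 (horizontal axis) in 16 gene lists, with the number of tested members in brackets; filled red points have adjusted p under 0.05, and black lines are list medians. The medians run from 2.41 in MHC class II genes to -0.53 in basal and squamous genes, where 15 of the 17 called points lie to the left of 0.

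Squamous differentiation genes held more called falls than any other list. In stratified epithelium, basal cells leave the cell cycle and make keratins, desmosomal cadherins and cornified envelope proteins as they move outwards. Of 70 tested basal and squamous genes, 15 were lower with valemetostat than with PF-06821497 and 2 higher, with a median of -0.53. The summed level of the list overlapped between the compounds, at 44000, 41150 and 30420 CPM with valemetostat and 53310, 38320 and 60310 CPM with PF-06821497. Vehicle libraries summed to 46840, 47240 and 47640 CPM. PF-06821497 library 2 was thus below valemetostat libraries 1 and 2 and every vehicle library. KRT1, the keratin of suprabasal epidermis, had 317, 626 and 189.5 CPM with valemetostat, 1521, 927 and 1466 CPM with PF-06821497 and 2116, 2686 and 2908 CPM with vehicle. The lowest PF-06821497 library stood above the highest valemetostat library. The difference was -1.79 ± 0.33 (SE), adjusted p = 0.00363. CALML5, a calmodulin-like protein of differentiating keratinocytes, had 27.6, 29.8 and 14.2 CPM with valemetostat, 61.1, 65.1 and 109 CPM with PF-06821497 and 161, 172 and 155 CPM with vehicle (-1.71 ± 0.26 (SE), adjusted p = 0.000959). KRT4, a mucosal keratin, differed by -1.35 ± 0.22 (SE), adjusted p = 0.00128, with 86.1, 84.9 and 51.6 CPM in valemetostat, 162, 180.2 and 228 CPM in PF-06821497 and 261, 279.6 and 201 CPM in vehicle tumours. SERPINB13, a protease inhibitor of squamous epithelium, had 23.9, 33.2 and 29.1 CPM, 60.1, 53.9 and 49.4 CPM and 78, 81.5 and 94.7 CPM in the same order of groups (-0.92 ± 0.16 (SE), adjusted p = 0.00218).

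Some squamous genes were set apart by their vehicle levels. DSG3, a desmosomal cadherin, had 208, 233 and 160.4 CPM with valemetostat, 493, 282 and 372 CPM with PF-06821497 and 371, 337 and 445 CPM with vehicle, so that PF-06821497 and vehicle libraries overlapped (-0.93 ± 0.22 (SE), adjusted p = 0.0151 between the compounds). S100A7, or psoriasin, had 976, 852 and 613 CPM with valemetostat, 1209, 1195 and 2151 CPM with PF-06821497 and 951, 974 and 639 CPM with vehicle (-0.90 ± 0.25 (SE), adjusted p = 0.0451). It rose with PF-06821497 over vehicle, by 0.83 (adjusted p = 0.0425), and differed from vehicle with valemetostat by -0.07 (adjusted p = 0.866). FLG, or filaggrin, fell in both comparisons with vehicle, with log2 fold changes of -2.58 (adjusted p = 4.22e-07) with valemetostat and -1.40 (adjusted p = 0.00103) with PF-06821497, and differed between the compounds by -1.19 ± 0.26 (SE), adjusted p = 0.0097. IVL, involucrin of the cornified envelope, did not pass (-0.17, 95% interval -0.67 to 0.33), and neither did KRT5 (-0.32, 95% interval -0.79 to 0.16) or TP63, the regulator of basal epithelium (-0.28, 95% interval -0.66 to 0.10). The count of 15 falls was 4 without valemetostat library 3, 8 without PF-06821497 library 3 and 27 without PF-06821497 library 2. The 2 rises, SERPINB2 among them, were not called without valemetostat library 1 or 3 or PF-06821497 library 2 or 3. KRT1, KRT4, CALML5 and SERPINB13 kept their calls in all of these fits, FLG lost its call without valemetostat library 3 (0.0977), and DSG3 without valemetostat library 3 (0.132) or PF-06821497 library 1 (0.0744). The S100A7 call was lost without any 1 valemetostat library (0.06 to 0.283) or PF-06821497 library 3 (0.297), and with RLE (0.0564) or upper-quartile scaling (0.0677), the filter of 1 CPM in 3 libraries (0.0525) and the block by titles (0.0629). S100A7 was not called in the fit of the 6 libraries alone either (0.114).

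Among the 12 largest falls over all genes, KRT1 and LAMB4 belong to the basal and squamous list. SLURP1, a secreted protein of keratinocytes, had 0.0934, 0.296 and 0.276 CPM with valemetostat, 1.09, 0.817 and 1.93 CPM with PF-06821497 and 1.09, 1.26 and 0.932 CPM with vehicle (-2.52 ± 0.48 (SE), adjusted p = 0.00423). LGALS7B, a galectin of stratified epithelium, had 7.14, 9.08 and 5.24 CPM, 21.2, 17.6 and 37 CPM and 25.8, 36.1 and 30.0 CPM in the same order (-1.82 ± 0.30 (SE), adjusted p = 0.00159), and its near-identical copy LGALS7 differed by -1.86 ± 0.37 (SE), adjusted p = 0.00662, so that reads could be divided between them. CARD18, an inhibitor of caspase 1 (-1.79 ± 0.35 (SE), adjusted p = 0.00586), LAMB4, a laminin chain (-1.90 ± 0.39 (SE), adjusted p = 0.00859), PLA2G3, a secreted phospholipase (-1.85 ± 0.48 (SE), adjusted p = 0.0296), GPR15LG, a chemoattractant of epithelium (-1.85 ± 0.45 (SE), adjusted p = 0.0245), and CALML3-AS1, antisense to CALML3 (-1.77 ± 0.31 (SE), adjusted p = 0.00237), were also among the 12. LAMB4 was below vehicle in every library of either compound, at 3.08, 5.83 and 2.54 CPM with valemetostat, 8.52, 22.8 and 11.3 CPM with PF-06821497 and 48, 55 and 62.2 CPM with vehicle.

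A further 3 of the 12 largest falls, POU2AF2, COLCA1 and POU2AF3, lie side by side on chromosome 11 (hg38, 111245805 to 111308735). POU2AF2 and POU2AF3 encode coactivators of POU2F3, the regulator of tuft cells. POU2AF2 had 0.467, 0.345 and 0.386 CPM with valemetostat, 1.51, 1.85 and 1.89 CPM with PF-06821497 and 1.49, 2.64 and 1.4 CPM with vehicle (-2.11 ± 0.41 (SE), adjusted p = 0.0047). POU2AF3 had 0.42, 0.79 and 0.221 CPM with valemetostat, 1.61, 1.98 and 2.28 CPM with PF-06821497 and 2.85, 4.24 and 2.52 CPM with vehicle (-2.01 ± 0.40 (SE), adjusted p = 0.00586). COLCA1 had 0.747, 0.888 and 0.607 CPM with valemetostat, 1.4, 3.31 and 3.29 CPM with PF-06821497 and 3.4, 6.08 and 4.52 CPM with vehicle (-1.83 ± 0.43 (SE), adjusted p = 0.0156). The compound groups did not overlap in any of the 3, which the rule that named them required. COLCA1 overlaps POU2AF3 on the other strand, and reads of the pair cannot be told apart without the strand setting. Of the 12 largest falls, SLURP1, POU2AF2, LGALS7B, KRT1 and CALML3-AS1 kept their calls without any 1 of the 6 libraries. The other 7 lost the call without valemetostat library 3 (adjusted p from 0.0512 in LGALS7 to 0.17 in PLA2G3). LAMB4, PLA2G3, GPR15LG and COLCA1 lost it also without valemetostat library 1 (0.0514 to 0.104), LGALS7, PLA2G3, GPR15LG and COLCA1 without PF-06821497 library 3 (0.0504 to 0.128), PLA2G3 and GPR15LG without PF-06821497 library 1 (0.116 and 0.0572), and COLCA1 without PF-06821497 library 2 (0.0546). COLCA1 was not called by limma-voom (0.0511), nor PLA2G3 with the resubmission term by titles (0.0704).

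**Figure D5:**
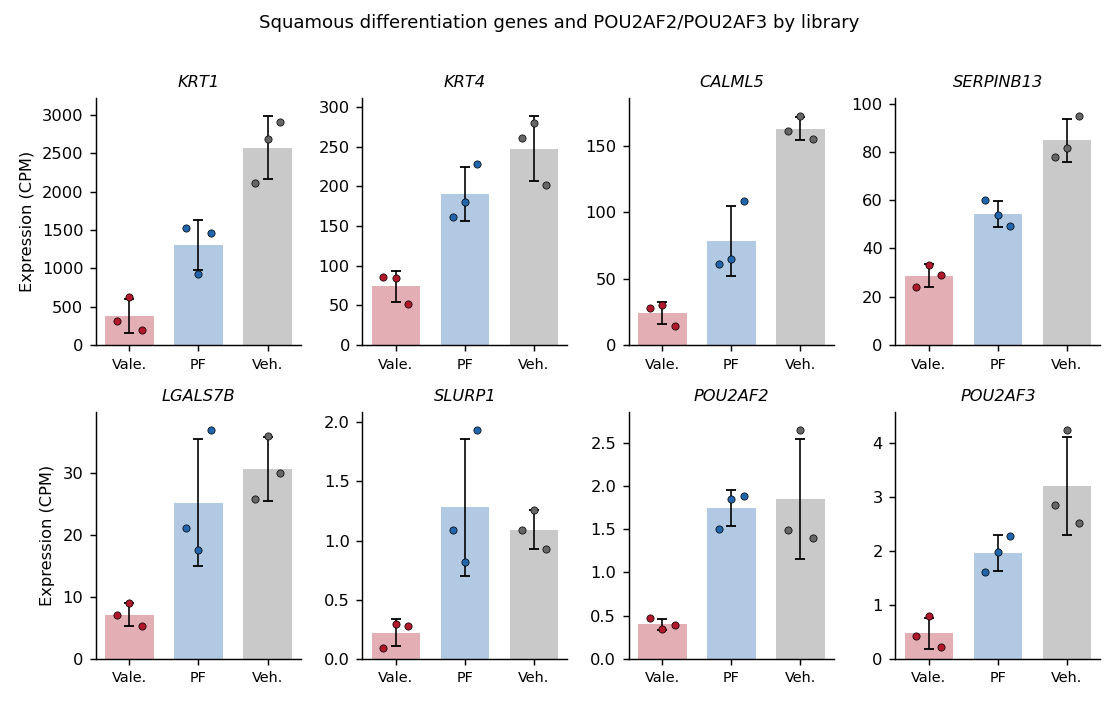
Each panel gives the CPM of 1 gene in valemetostat (Vale.), PF-06821497 (PF) and vehicle (Veh.) tumours, with points for libraries 1 to 3 from left to right, bars for means and whiskers for SD (n = 3). All valemetostat points lie below all PF-06821497 points. The naming rule required this of KRT1, LGALS7B, SLURP1, POU2AF2 and POU2AF3. For SLURP1 and POU2AF2 the PF-06821497 and vehicle points overlap.

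Luminal urothelial genes were higher in 3 of 32 tested (35 listed) and lower in none (all genes: 3.46% and 1.16%), with a median of 0.05. TMPRSS2, a membrane serine protease, differed by 1.70 ± 0.41 (SE), adjusted p = 0.0178, BAMBI, a decoy receptor of the BMP pathway, by 1.29 ± 0.30 (SE), adjusted p = 0.0138, and TBX3 by 0.68 ± 0.18 (SE), adjusted p = 0.032. TBX3 was not called with the resubmission term by file names (0.0591). None of the 3 was called without valemetostat library 3 or PF-06821497 library 2, and 1 was called without valemetostat library 1 or PF-06821497 library 3. Uroplakin UPK1B, a plaque protein of urothelium, was present in all groups, at 444, 379 and 308 CPM with valemetostat, 399.7, 398 and 503 CPM with PF-06821497 and 569, 606 and 629.5 CPM with vehicle. Genes of xenobiotic and oxidative stress responses were lower in 4 and higher in 1 of 32 tested (38 listed), with a median of -0.24. GSTA4, which conjugates lipid aldehydes to glutathione, had 1.4, 2.17 and 1.71 CPM with valemetostat, 3.74, 4.51 and 4.35 CPM with PF-06821497 and 5.48, 6.29 and 5.68 CPM with vehicle (-1.25 ± 0.25 (SE), adjusted p = 0.00621). AKR1C2, a steroid and aldehyde reductase, had 26.4, 37.8 and 24.1 CPM with valemetostat, 50.9, 79 and 76.2 CPM with PF-06821497 and 45.8, 49.3 and 51 CPM with vehicle (-1.22 ± 0.24 (SE), adjusted p = 0.00493), a call lost without valemetostat library 3 (0.0597). The count of falls in this list was 2 without valemetostat library 1 and 1 without valemetostat library 3.

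Of 33 genes of cholesterol and fatty acid synthesis 1 was lower and none higher, with a median of -0.26. SCD, the stearoyl-CoA desaturase, had 246, 349.5 and 216 CPM with valemetostat, 458, 462 and 393 CPM with PF-06821497 and 694, 698 and 841 CPM with vehicle (-0.69 ± 0.18 (SE), adjusted p = 0.028). Its call was lost without valemetostat library 1 (0.107) or 3 (0.212), or PF-06821497 library 1 (0.0672) or 2 (0.0727). DESeq2 also called SQLE (adjusted p = 0.0415) and IDI1 (0.0404) lower, against 0.0725 and 0.077 in edgeR. At an unadjusted p under 0.05, edgeR gave 8 falls and no rise in this list. The difference was positive in 3 of the 33 (median over all genes: -0.02). Against vehicle, 20 of the 33 fell with valemetostat (list median -0.49) and 5 with PF-06821497 (list median -0.27), with the vehicle libraries shared. Between the compounds, 3.46% of all tested genes were called higher and 1.16% lower. The few calls in the EMT, hypoxia and immediate early lists are no result about those lists. Among 25 EMT genes 2 were higher, TWIST1, a mesenchymal transcription factor (1.03 ± 0.21 (SE), adjusted p = 0.00649), and AXL, a receptor kinase (0.55 ± 0.13 (SE), adjusted p = 0.0167), and 2 lower, TGFBI and LOXL2. Among 35 hypoxia and glycolysis genes CA12, a carbonic anhydrase, was higher (1.01 ± 0.24 (SE), adjusted p = 0.0154) and BNIP3L, a mitophagy receptor, lower (-0.58 ± 0.17 (SE), adjusted p = 0.0482), and among 28 immediate early and heat shock genes HSPH1, a chaperone, was higher (0.42 ± 0.11 (SE), adjusted p = 0.0278) and EGR1, an early response factor, lower (-0.68 ± 0.19 (SE), adjusted p = 0.0458). All 8 of these calls were lost without valemetostat library 3 (adjusted p from 0.0512 to 0.319). TGFBI, LOXL2, BNIP3L, HSPH1 and EGR1 lost theirs also without valemetostat library 1 (0.0629 to 0.166), LOXL2, BNIP3L and EGR1 without PF-06821497 library 1 (0.0833 to 0.129), TGFBI, LOXL2, CA12 and HSPH1 without PF-06821497 library 2 (0.0546 to 0.107), and all but TWIST1 and CA12 without PF-06821497 library 3 (0.0726 to 0.297). TGFBI, LOXL2, BNIP3L and EGR1 were not called with RLE scaling (0.0548 to 0.0595), upper-quartile scaling (0.0626 to 0.0732) or the filter of 1 CPM in 3 libraries (0.056 to 0.0588). BNIP3L and EGR1 were not called by limma-voom (0.0507 and 0.0622) or with the block by titles (0.0644 and 0.0691), nor BNIP3L with the block by file names (0.0583) and EGR1 with the resubmission term by titles (0.0666). HSPH1 was not called with no low-count filter (0.096) or the resubmission term by file names (0.0508). Without PF-06821497 library 2, 6 immediate early genes were lower, and without valemetostat library 2, 5 hypoxia genes were lower. None of 24 stress response or 23 p53 target genes passed in edgeR's test with all libraries, and at an unadjusted p under 0.05 the stress list held 6 rises and 1 fall and the p53 list 1 of each. DESeq2 called SDF2L1 (adjusted p = 0.0435) and XBP1 (0.0318) higher, and limma-voom none. SDF2L1 was also called with no low-count filter (0.000622), the resubmission term by file names (0.0303) and the muscle covariate (0.0314), and GDF15 (higher) and CCNG1 (lower) were called with no filter (0.000471 and 0.0434) and without valemetostat library 2 (0.039 and 0.0278). Adjusted p-values of the fit with no filter were of another order than in the other settings. In the edgeR fit with all libraries the 95% interval of the difference lay within 2-fold in 22 of the 24 and 22 of the 23.

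Markers of other cell types were examined because the tumours grew in mice, and in bulk tissue fewer cells of a type and less RNA per cell cannot be told apart. The 8 epithelial markers were abundant in all groups, with a summed level of 8619 to 13620 CPM with valemetostat, 11500 to 15370 CPM with PF-06821497 and 11450 to 11970 CPM with vehicle, and none was called. Valemetostat library 3, at 8619 CPM, was the lowest of the 9. Of 11 tested macrophage and granulocyte markers (15 listed) 2 were higher with valemetostat, LAPTM5 (0.76 ± 0.18 (SE), adjusted p = 0.0144) and ADGRE1 (1.12 ± 0.26 (SE), adjusted p = 0.0146); neither was called without valemetostat library 3, and LAPTM5 alone was called without valemetostat library 1 or PF-06821497 library 2. Their summed level was 158.6 to 186.1 CPM with valemetostat, 145.4 to 174.3 CPM with PF-06821497 and 155.6 to 184.9 CPM with vehicle. ITGAM (10870 counts over the 6 libraries), LAPTM5 (4659) and CD14 (2461) held the most counts and so weigh most in this sum. The complement genes C1QA, C1QB and C1QC, which mark macrophages, had at most 5 counts each in a library. Of 5 tested lymphocyte and natural killer markers (10 listed) none was called, with sums of 3.16 to 4.85, 1.805 to 3.12 and 1.025 to 1.301 CPM in valemetostat, PF-06821497 and vehicle tumours. MS4A1, a B cell marker, had 2 counts over the 6 libraries. Of 10 endothelial markers (11 listed) 1 was higher, PECAM1 (1.05 ± 0.22 (SE), adjusted p = 0.00789, lost without valemetostat library 3, 0.0839, or PF-06821497 library 3, 0.0586), with sums of 42.3 to 54.7 CPM with valemetostat, 22.7 to 40.1 CPM with PF-06821497 and 19.4 to 23.8 CPM with vehicle; CDH5, a defining endothelial gene, had at most 16 counts in a library. Median differences were 0.69 for macrophage and granulocyte markers (7 of 11 positive) and 0.56 for lymphocyte and natural killer markers (5 of 5). They were 0.69 for endothelial markers (8 of 10) and 0.02 for epithelial markers (4 of 8). The median over all genes was -0.02, with 3.46% called higher. Against vehicle with valemetostat, the first 3 lists held 4, 4 and 4 rises and 1, 0 and 2 falls. The part of these markers in the immune gene differences was not tested.

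Of 24 fibroblast and matrix genes 3 were higher and none lower (all genes: 3.46% and 1.16%): COL6A1, a chain of collagen VI (2.85 ± 0.44 (SE), adjusted p = 0.00139), THY1 (1.91 ± 0.38 (SE), adjusted p = 0.00583) and PDGFRA (1.53 ± 0.34 (SE), adjusted p = 0.0103). Their list summed to 2076 to 2452 CPM with valemetostat, 1971 to 2578 CPM with PF-06821497 and 2796 to 3876 CPM with vehicle, and 1 gene, COL6A1, was called without valemetostat library 3, 2 without PF-06821497 library 2 or 3 and 5 without valemetostat library 2. Of 15 skeletal muscle markers 1 was lower, TNNT3 (-0.63 ± 0.15 (SE), adjusted p = 0.0174, lost without valemetostat library 3, 0.152, PF-06821497 library 2, 0.0692, or PF-06821497 library 3, 0.114), and their median log2 CPM varied within groups, at 1.22, 2.68 and 3.93 with valemetostat, 3.82, -0.27 and 3.27 with PF-06821497 and 2.52, -1.92 and 3.42 with vehicle. With that level as a covariate in the fit, 862 genes were higher and 341 lower, and the count of class II rises was again 15. The summed muscle markers were 431.7 to 446.1 CPM with valemetostat, 525.2 to 706.7 CPM with PF-06821497 and 616.4 to 669.6 CPM with vehicle. The compound groups did not overlap in this sum, in which TNNT3 (32917 counts over the 6 libraries) and TNNI2 (21114) weigh most. ADIPOQ, a defining gene of adipocytes, had no count in the 6 libraries.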

How the data were processed

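The 21 libraries hold xenograft RNA, per the labels extracted with Trizol, made into libraries with a TruSeq RNA v2 kit by a protocol also called strand specific, and read as paired 150 bp reads at 9 samples a lane. The values are raw counts per gene, as deposited by the authors, 57500 genes a library. STAR 2.7.3a, RSEM 1.3.1 and hg38 are named in the submitters' processing notes. Which program counted the reads, whether it used strand, which annotation it read and whether mouse reads were removed is not given in the sources used here. Counts of antisense pairs and of close copies are therefore uncertain, and mouse reads were not looked for in sequence. Symbols were taken from a reference list of gene names, or from GENCODE 29 where that list gave none. GENCODE 29, the source of the gene types, holds 56898 of the genes, 54784 with the same start and end.

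Groups came from the treatment in the labels. PF-06821497 libraries are numbered by title; the count files number them otherwise, and the mark of a resubmitted library sits on PF-06821497 library 1 in the titles and on library 2 in the files. Library totals of the 6 compared libraries were 17160480 to 24097875, which sets the precision of low genes: a count of 0 allows up to 3 counts, and such floors cover counting error only.

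The software was edgeR 4.0.16 under R 4.3.3, with DESeq2 1.42.0 and limma 3.58.1 for alternatives. All 7 groups entered 1 fit, which shares the estimate of spread. The low-count filter (filterByExpr with the groups) left 21958 genes with 99.6% to 99.9% of counts; these were scaled by TMM (factors 0.946 to 1.08) and tested with the two-sided edgeR quasi-likelihood test with robust dispersions (14 residual degrees of freedom; common biological coefficient of variation 0.163) and Benjamini-Hochberg adjustment over all genes, threshold 0.05. A list member with few counts can pass the low-count filter through a single high group. Counts and medians of lists with untested members carry that choice. SE is the log2 fold change divided by the square root of F. The steps were tested on simulated data.

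The members and gene lists were chosen with earlier results of these data known. Genes were named by a rule: among called genes that have a symbol, average 1 CPM or more in the higher group and show no overlap of libraries, the 12 largest rises and 12 largest falls; in each list, the members ranked lowest by p, at most 4; and EZH2, EZH1, EED and SUZ12. Other list members (HLA-DRB1, HLA-DQB1, HLA-DMB, HLA-DOB, CD74, CTSS, IFI30, HLA-B, B2M, MX1, CXCL9, WT1, SOX7, CDKN1A, CDKN2A, MKI67, DSG3, S100A7, FLG, IVL, SERPINB2, UPK1B, IL1RN and markers named for their low or high counts) were named after their values were seen. A gene that the rule also named is not reported here. Promoter windows are RefSeq's, GRCh38.p14. Alternatives were other filters, scaling by RLE or the upper quartile, limma-voom, DESeq2, a fit of the 6 libraries alone, glmTreat against a 1.5-fold change, replicate number as a block, terms for the resubmission mark, skeletal muscle marker level as a covariate, and each library left out.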

Additional observations from a re-analysis of the deposited data

How the results depend on the processing

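No gene called between valemetostat and PF-06821497 was called in the opposite direction under any alternative. The fit with no low-count filter gave adjusted p-values of another order. CD74 had 3.7e-47 there against 0.00333 with RLE scaling, and FOS 1.16e-09 against 0.0826 in the main fit. For EED the value was larger, 0.441 against 0.221. Calls of that fit are therefore not comparable with those of the other settings. Rises and falls numbered 1225 and 527 with no low-count filter, 187 and 11 in the test against a 1.5-fold change, 329 and 47 in the fit of the 6 libraries alone, and 881 and 194 with upper-quartile scaling; the falls numbered 479 with a term for the resubmission mark in the file names. In the test against a 1.5-fold change, 57 of the 97 called genes chosen by the naming rule lost their call and 40 kept it. Those lost included TAP1 (adjusted p = 0.136), PSMB9 (0.228), NLRC5 (0.142), IRF1 (0.181), APOL1 (0.575) and WARS1 (0.558). Over the 6 fits leaving out a library, rises ran from 212 to 893 and falls from 24 to 328. Genes called against vehicle numbered 2380 with valemetostat and 441 with PF-06821497 in the test against a 1.5-fold change, and leaving out a library gave 4277 to 5453 and 1041 to 1995. For PF-06821497 against vehicle the count was 1347 without PF-06821497 library 3, 1322 without vehicle library 2 and 1041 without vehicle library 3. The 15 class II rises ran from 12 (the 6 libraries alone) to 15 over these alternatives, and the 12 chemokine rises were 4 and the 22 interferon-stimulated rises 7 in the fit of the 6 libraries alone. Of the lists with no fall in edgeR's test, DESeq2 called a fall in the CDK inhibitor (CDKN2B), imprinted (PEG10) and cytokine (IL1RN, adjusted p = 0.0395) lists, and limma-voom in none. At an unadjusted p under 0.05, edgeR gave no fall in the class II, class I, interferon-stimulated, chemokine, NF-kB, PRC1, PRC2 and HOX lists, 1 in the CDK inhibitor list, 2 each in the cytokine, neuronal, cancer-testis and luminal lists and 3 each in the imprinted and fibroblast lists.

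Deviations of same-numbered libraries from their group means had correlations of both signs (r = -0.181, 0.248 and -0.072 by titles, -0.028, -0.154 and 0.322 by file names). With so few libraries in a group, these values cannot show or exclude a pairing. With the replicate number as a block, 668 genes were higher and 188 lower by titles, and 684 and 213 by file names. Uncalled differences near 0 changed sign: leaving out a library gave -0.0055 to 0.1128 for EZH2, -0.1797 to 0.0559 for EZH1 and -0.2273 to 0.0968 for SUZ12, and SUZ12 stood at 0.0898 and 0.0289 with the terms for the resubmission mark in titles and file names. The cause of these changes was not tested, beyond the smaller number of libraries or genes in a fit. Depth limits genes near 0.124 to 0.175 CPM, the level of 3 counts.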
